A study of Mus musculus with 18 samples.

Results

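The regions described here are sites of the cohesin loader NIPBL near gene starts in a mouse pro-B cell line that lay outside the RAD21 regions called in both control libraries. NIPBL peaks of both dCas9 control libraries on chromosomes 1 to 19 and X were merged where they overlapped, and 32156 merged regions had a peak in both libraries. Of these, 10084 lay within 5 kb of an annotated gene start and overlapped none of the 41593 RAD21 regions called in both RAD21 control libraries, and these are the member regions. They were therefore selected on the control NIPBL and control RAD21 peaks, whose values are given as description. Another 3441 NIPBL regions lay within 5 kb of a start and overlapped a RAD21 region, 15800 lay farther from any start and outside the RAD21 regions, and 2831 lay farther away and overlapped one.

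RAD21 and NIPBL were mapped by ChIP-seq in a v-Abl transformed pro-B line, a cell type arrested early in B cell development, in a study of loop extrusion and RAG scanning in antibody gene recombination. All groups carried JH-del, expressed dCas9, the nuclease-dead form of Cas9, carried Emu-Bcl2 and were RAG2 deficient, and all received 3 uM STI-571, an Abl kinase inhibitor, for 4 days before fixation in 1% formaldehyde. The dCas9 control groups (NIPBL, n = 2; RAD21, n = 2) had no further change, and the block groups (NIPBL, n = 2; RAD21, n = 2) also expressed Sg1-sgRNA. The RAD21 Ig2b wild type group (n = 3) had the control genotype, and the Ig2b deleted group (n = 3) was Ig2b-del/del. The 4 input libraries were not used here. All groups are forms of a transformed line, and the number of clones behind each group is not given in the sources used here. Nothing in the labels says that replicates were separate cultures, so each p-value measures only the spread between these samples.

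NIPBL acts with MAU2 to load the cohesin ring onto chromatin and to stimulate its ATPase, which drives DNA loop extrusion, while RAD21 is the subunit that closes the ring. Cohesin is known to accumulate at sites bound by CTCF, and NIPBL ChIP signal is known to be strong at active promoters. Most promoters of widely expressed genes lie in CpG islands, stretches in which the CG dinucleotide is not depleted.

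The lists did not bear out the reading that RAD21 was absent from the member regions. RAD21 control replicate 1 had a peak in 0.625% of them and RAD21 control replicate 2 in 59.9%. A member region could hold a peak of one control list because the selection excluded only RAD21 regions with a peak in both. Across all 10 RAD21 lists, 3139 member regions (31.1%) had no RAD21 peak and 6945 had at least 1. The regions are hence called by their selection and not as lacking RAD21.

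For orientation, 150 bases upstream of 6 gene starts inside member regions are shown, one for each of the 6 motifs whose share in the member regions was highest against that at all gene starts. In each case the member region with the highest mean NIPBL fold in the block lists was taken whose match lay in the region, upstream of the start and outside annotated exons. Sequences run 5′ to 3′ on the strand of the gene, on mm9 (NCBIM37), with GENCODE vM1 starts, and capitals mark the motif on either strand. The windows are Adam17 (YY1 motif, chr12:21379494-21379643, minus strand), Hist1h4k (E2F motif, chr13:21842375-21842524, minus), Hist2h3c2 (GC box, chr3:96043051-96043200, minus), Hist1h1e (ETS motif, chr13:23714372-23714521, minus), Zranb2 (EBF motif, chr3:157196974-157197123, plus) and Smarcd2 (ZBTB33-like motif, chr11:106134287-106134436, minus).
Adam17: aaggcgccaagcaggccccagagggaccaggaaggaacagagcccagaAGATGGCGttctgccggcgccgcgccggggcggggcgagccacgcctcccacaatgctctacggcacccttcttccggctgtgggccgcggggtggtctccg
Hist1h4k: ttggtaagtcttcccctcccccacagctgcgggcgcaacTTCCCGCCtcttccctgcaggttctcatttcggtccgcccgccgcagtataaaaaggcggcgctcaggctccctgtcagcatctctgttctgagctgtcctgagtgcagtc
Hist2h3c2: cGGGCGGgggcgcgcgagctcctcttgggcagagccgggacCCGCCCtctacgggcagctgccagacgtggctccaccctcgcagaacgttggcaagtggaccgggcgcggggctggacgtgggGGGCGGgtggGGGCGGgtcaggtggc
Hist1h1e: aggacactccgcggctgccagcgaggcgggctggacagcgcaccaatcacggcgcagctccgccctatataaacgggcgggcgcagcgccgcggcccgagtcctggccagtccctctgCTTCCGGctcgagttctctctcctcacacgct
Zranb2: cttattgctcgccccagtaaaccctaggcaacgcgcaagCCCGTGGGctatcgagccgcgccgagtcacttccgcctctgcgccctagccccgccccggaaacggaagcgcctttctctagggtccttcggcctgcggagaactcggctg
Smarcd2: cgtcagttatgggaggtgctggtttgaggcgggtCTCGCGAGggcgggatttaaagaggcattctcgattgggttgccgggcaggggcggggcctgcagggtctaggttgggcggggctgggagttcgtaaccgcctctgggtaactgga

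These 6 regions had NIPBL in every list because the selection and the choice by block fold required it. RAD21 there ranged from a single list to 9 of 10. The region at Zranb2, which encodes a splicing-associated zinc finger protein, had NIPBL folds of 13.3 and 11.3 in the control lists and 16.4 and 13.2 in the block lists, where a fold is the authors' peak enrichment over background. Its only RAD21 peak was in Ig2b deleted replicate 2, with a fold of 3.08. The region at Adam17, which encodes a membrane protease that sheds cell surface proteins, had NIPBL folds of 8.53 and 7.34 in the control lists and 12.6 and 10.2 in the block lists. At Adam17 RAD21 peaks were in every list but control replicate 1, with folds of 6.63 in control replicate 2, 3.00 and 5.89 in the block lists, 4.12, 4.79 and 3.34 in the Ig2b wild type lists and 5.23, 4.85 and 5.05 in the Ig2b deleted lists. At Adam17 the lowest Ig2b deleted fold (4.85) was just above the highest wild type fold (4.79).

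The member regions were rich in G, C and CG. In windows of 300 bases around their centres the median GC content was 65.7% and the median CpG ratio (observed over expected CG from the base content) was 0.810. Promoter regions overlapping RAD21 had 64.0% and 0.757, distal regions outside RAD21 had 57.7% and 0.506, and windows at all 37252 annotated starts had 52.0% and 0.380. A CpG ratio over 0.6 together with GC over 50% was found in 74.5% of member regions, 65.4% of the RAD21-overlapping promoter regions and 30.0% of the distal regions. Among the printed windows' regions, Zranb2 had a GC content of 72.3% and Hist2h3c2 had 58.0%.

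Motifs were searched as exact letters on both strands, each on its own, so that matches of different motifs may overlap. The GC box bound by SP and KLF factors (GGGCGG) was in 59.7% of member windows, 54.1% of RAD21-overlapping promoter windows, 26.7% of distal windows and 31.9% of windows at all gene starts. The other motifs with the highest shares against all starts were YY1 (ANATGGCG; 8.94% against 4.12%), E2F (TTCCCGCC; 3.89% against 1.97%), ETS (CCGGAAG; 14.3% against 7.91%), EBF (CCCNNGGG; 23.5% against 12.9%) and the ZBTB33-like motif (CTCGCGAG; 1.20% against 0.765%). At protein-coding starts alone the shares were closer to those of the members, at 45.8% for the GC box, 5.39% for YY1, 2.91% for E2F, 11.3% for ETS, 15.99% for EBF and 1.16% for the ZBTB33-like motif, which was then at about the member share. The TATA box (TATAAA) was in 2.99% of member windows against 13.2% at all starts, CCAAT in 26.3% against 37.0%, and the STAT5 letters (TTCNNNGAA) in 4.55% against 8.68%. The CTCF core motif was in 15 member windows (0.149%) against 3.69% of the RAD21-overlapping promoter windows and 0.491% at all starts. A match describes the letters and not a bound site.

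**Figure D1:**
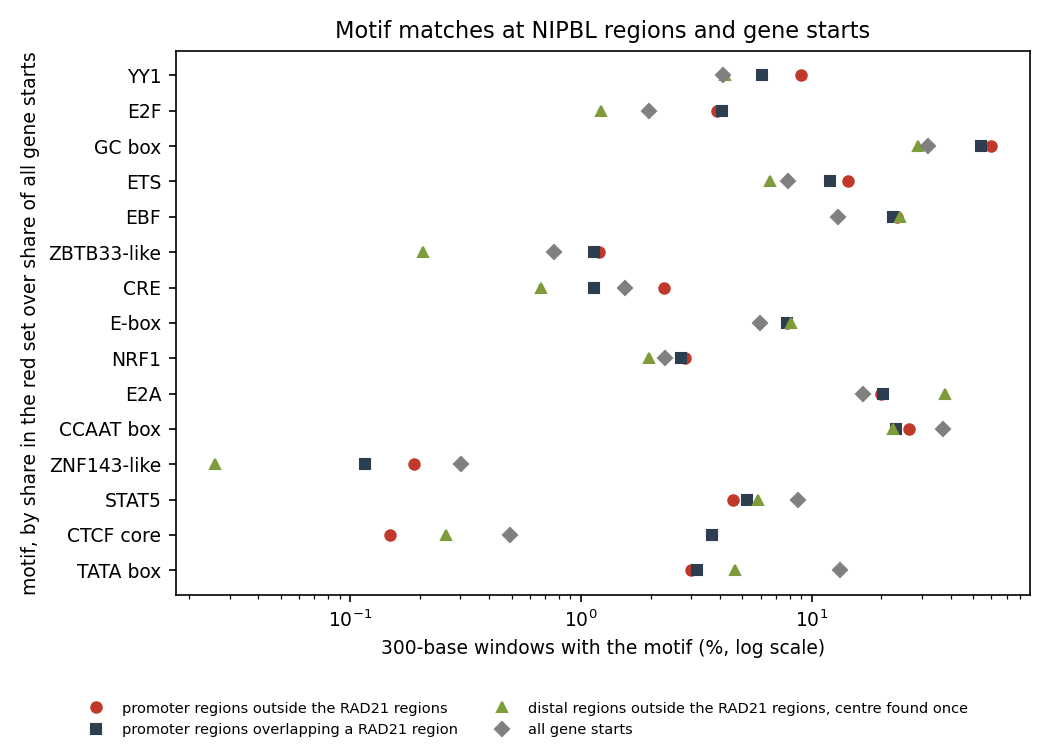
Share of 300-base windows with each motif, in percent on a log scale, at member regions (red circles), promoter regions overlapping RAD21 (dark squares), distal regions outside RAD21 whose centre is found once in the genome (green triangles) and all gene starts (grey diamonds), ordered by the member share over the share at all starts. The GC box was the most common at 59.7% of member regions, and the CTCF core stood at 0.149% there against 3.69% of the promoter regions overlapping RAD21.

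Repeated sequence was less common in the member regions than in the distal ones. The 32 bases at the centre occurred more than once in the genome for 1283 member regions (12.7%), for 7.15% of the RAD21-overlapping promoter regions and for 75.6% of the distal regions. YY1 letters were in 20.9% of all distal windows but in 4.19% of those with a centre found once, against 8.11% of member windows with a centre found once. Reads from repeated sequence can be placed at the wrong copy, so values at such regions are uncertain.

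Most member regions covered a start. Their median width was 587 bp (middle 50% from 357 to 863 bp), and 6215 (61.6%) held a gene start, 1710 had their nearer edge under 1 kb from one and 2159 had it 1 to 5 kb away. Where a start lay inside, the centre was at a median of 94 bp downstream of it (middle 50% from 5 to 189 bp), and 76.1% of centres were downstream. The promoter regions overlapping RAD21 had a median of 95 bp. Starts pointing away from each other on opposite strands lay within 686 (11.0%) of the member regions with a start inside and 169 (8.23%) of the RAD21-overlapping promoter regions with one.

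**Figure D2:**
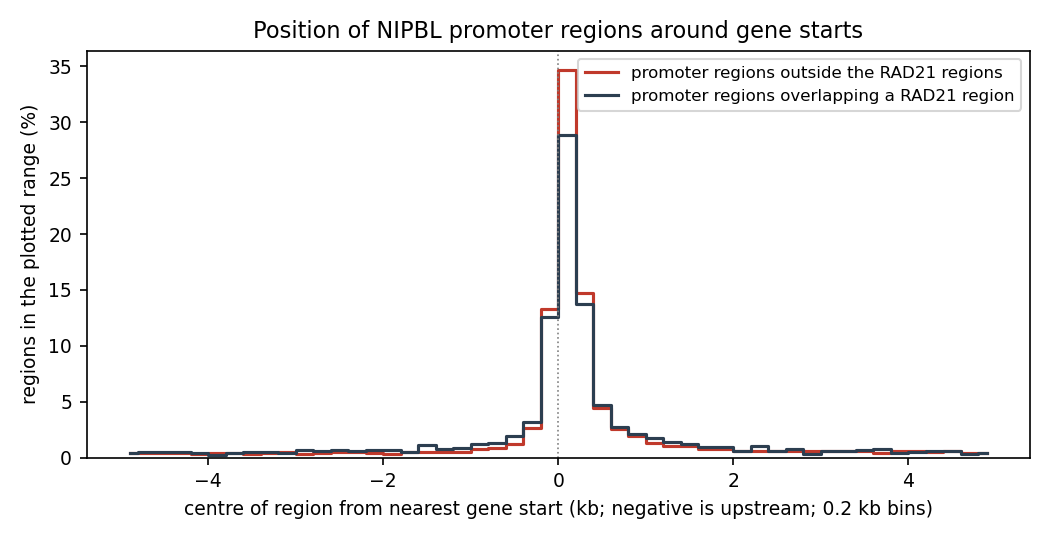
Distance of each region's centre from the nearest gene start, in kb along the gene and in bins of 0.2 kb, as a percentage of the plotted regions, for member regions (red) and promoter regions overlapping RAD21 (dark). Both peaked just downstream of the start, with medians of 94 and 95 bp where a start lay inside the region.

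Member regions with and without a start inside differed in most measures. Median width was 728 bp with a start inside and 347 bp without, median GC content 68.3% and 61.3%, and median CpG ratio 0.880 and 0.585. A centre found more than once in the genome was more common without a start inside, at 26.3% against 4.30%. The mean NIPBL fold in the block lists, over regions with a peak in both, had a median of 6.24 with a start inside and 4.12 without. No RAD21 peak in any of the 10 lists was found in 15.6% of those with a start inside and 56.1% of those without.

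Member regions reached 11470 of the 37252 annotated starts (30.8%), and 9131 of 22350 protein-coding starts (40.9%). Another 2248 protein-coding starts (10.1%) had only a NIPBL region overlapping RAD21 within 5 kb, and 10971 (49.1%) had no NIPBL region. The nearest start belonged to a protein-coding gene for 8640 member regions (85.7%), while protein-coding genes made up 60.0% of the annotated starts. Pseudogenes were nearest to 4.31% of member regions and made up 14.0% of starts. By chromosome, the share of protein-coding starts with a member region was lowest on X, at 28.6%, and highest on chromosome 8, at 49.3%. On X, 2.79% of protein-coding starts had only a region overlapping RAD21.

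Genes for core cell functions were compared with lineage genes by fixed lists. Of replication-dependent histone genes, which supply histones for new DNA in S phase, 63 of 70 had a member region within 5 kb. The other 7 had only a region overlapping RAD21. Neighbouring histone genes could share a member region, as Hist1h1b, Hist1h3i and Hist1h2an did. Genes of the aminoacyl-tRNA synthetases, which charge tRNAs, had one in 17 of 20 cases, DNA replication genes in 26 of 31, core spliceosome genes in 36 of 44, RNA polymerase II and TFIID genes in 22 of 28, and translation initiation factor genes in 47 of 62. Cytosolic ribosomal protein genes had one in 63 of 83 cases, the mitochondrial ribosomal protein genes in 58 of 80, nuclear respiratory chain genes in 68 of 93, Mediator genes in 22 of 31, proteasome genes in 31 of 45, and both the chaperone list and the DNA repair list in 14 of 20. These shares, from 68.9% to 90.0%, stand beside 40.9% of all protein-coding starts. Genes with only a region overlapping RAD21 made up 10.0% (histones and synthetases) to 22.6% (Mediator) of the same lists, beside 10.1% of protein-coding starts. A raised share was thus not limited to the member regions. Listed genes without any NIPBL region included Rpl10 and Rpl39l among ribosomal proteins, Lars among synthetases, Snrpn in the spliceosome, Med12l and Med24 in Mediator, and Nhej1 and Xrcc6 in DNA repair.

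Lineage and multigene-family lists had lower shares than these, early B genes (57.1%) included. The T cell and zinc finger lists were still above the 40.9% of all protein-coding starts, and the neuronal list (41.7%) was at about that level. The small nucleolar RNA host list (55.6%), which includes noncoding genes, was above the 30.8% of all gene starts. Olfactory receptor genes had a member region in 43 of 1251 cases (3.44%), keratin genes in 1 of 46, Hox genes in 7 of 40, erythroid genes in 1 of 12, myeloid genes in 3 of 12, neuronal genes in 5 of 12 and T cell genes in 6 of 12. Zinc finger genes named Zfp, many of them repressors of retroelements, had one in 184 of 348 cases. Small nucleolar RNA host genes had one in 5 of 9 cases. For 40 of the 43 olfactory receptor genes and all 7 Hox genes, the member region of highest block fold had RAD21 in 0 of 10 lists. Of all member regions 31.1% had none, and of those without a start inside 56.1%. NIPBL peaks in both block lists were found for 62.8% of these olfactory receptor genes and 28.6% of these Hox genes, against 85.8% of all member regions. The region at Hoxc9, a body-axis patterning gene, had NIPBL folds of 3.27 and 3.11 in the control lists and 5.51 and 3.01 in the block lists.

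The labelled cell type was checked against early B lineage genes. Of 21 early B lineage gene records (Ebf1 has more than 1 record), 12 had a member region, 7 had only a region overlapping RAD21, and Il7r and Rag2 had no NIPBL region in both controls within 5 kb. Among the 12, 10 also had a region overlapping RAD21. The region 492 bp from Spib, which encodes an ETS factor of B cells, had NIPBL folds of 9.26 and 5.17 in the control lists and 11.8 and 6.95 in the block lists, and RAD21 peaks in 6 of 10 lists. Ebf1 encodes a transcription factor that specifies B cells. A member region lay 787 bp from the start of an Ebf1 record annotated as a pseudogene. This region had NIPBL folds of 6.07 and 4.32 in control and 9.50 and 6.31 in block lists, with RAD21 also in 6 of 10. It lay within 5 kb of more than 1 Ebf1 record, so the 12 records count it more than once. In the T cell list, 6 of 12 genes had a member region (50.0%, against 57.1% of the early B records), and Cd3e, Cd4, Cd8a, Gata3 and Zap70 had no NIPBL region. The region at Lat, which encodes an adaptor of T cell receptor signalling, had NIPBL folds of 7.26 and 4.35 in control and 10.1 and 7.64 in block lists, and RAD21 peaks in 8 of 10 lists.

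**Figure D3:**
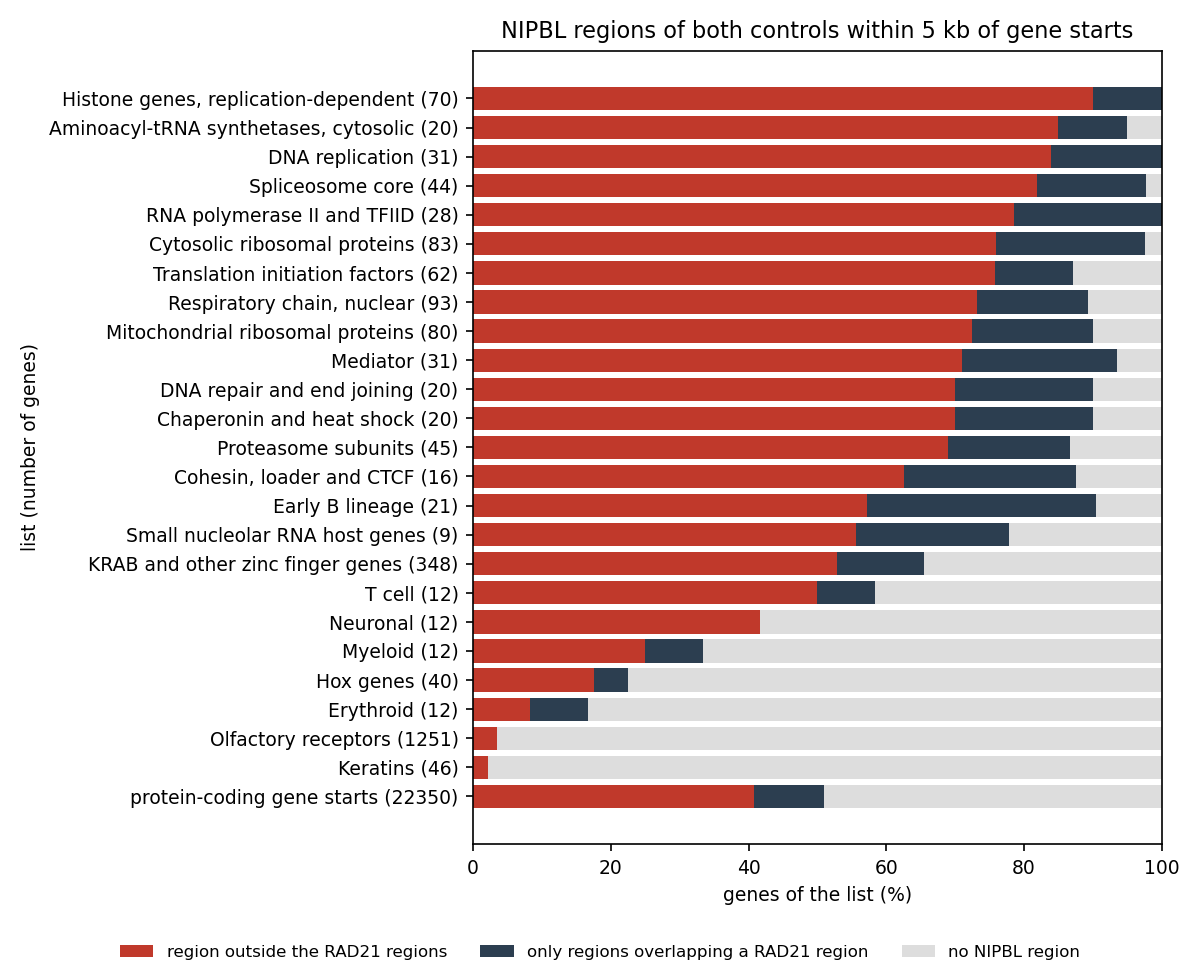
Percentage of the genes of each list with a member region within 5 kb of the start (red), with only a region overlapping RAD21 (dark) or with no NIPBL region of both controls (grey); the number of genes is in brackets. Histone genes are at the top with 90.0% red, olfactory receptors and keratins near the bottom with 3.44% and 2.17%, and protein-coding starts as a whole have 40.9%.

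Cohesin's own genes were part of this set. Of 16 genes for cohesin, its regulators and CTCF, 10 had a member region, 4 had only a region overlapping RAD21, and Hdac8, the SMC3 deacetylase, and Stag1, a core subunit, had none. The member share of 62.5% stands beside 40.9% of protein-coding starts and was below the lowest core list share, 68.9%. The share with only a region overlapping RAD21 was 25%, beside 10.1% of protein-coding starts. The region at Cdca5, which encodes sororin, the protector of sister cohesion, had NIPBL folds of 8.32 and 8.96 in the control lists and 13.7 and 10.9 in the block lists, and RAD21 peaks in 3 of 10 lists. The region at Esco1, an SMC3 acetyltransferase, had RAD21 peaks in 9 of 10 lists with folds from 3.04 to 7.05, and NIPBL folds of 6.44 and 3.82 in control and 9.55 and 7.30 in block lists. The region at Wapal, which encodes the cohesin release factor WAPL, had RAD21 peaks in 5 of 10 lists. These 3 regions were named for the highest block folds of the list, which favours block above control. In all 3 regions both block folds were above both control folds. That order held at 4881 (56.4%) of the 8656 member regions with a peak in both block lists and at 46.3% of all NIPBL regions with one in both.

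The highest control folds, which the selection used, were mostly at histone genes. The 10 highest were at Hist2h3c2, Hist1h3i, Hist1h3h, Hist1h3b, Hist2h3c1, Hist1h3d, Hist1h4n, Gm10582, Cacng2 and Hist2h3b, with means from 12.4 to 16.3. In the block lists, which the selection did not use, Hist1h3i had folds of 23.1 and 19.0 and Hist2h3c2 had 23.1 and 18.9. Counted per histone gene, taking its member region of highest block fold within 5 kb, the median block fold was 14.2. A region near several histone genes was counted for each of them. Over member regions with a peak in both block lists, each counted once, the median was 5.68. These medians are thus unlike measures. Histone genes have near-identical copies (the centre of the Hist1h3i region occurred 12 times in the genome), so reads could be split between copies, and these values are uncertain. Cacng2, which encodes a calcium channel subunit and has a centre found once, had control folds of 13.9 and 11.0, block folds of 20.5 and 16.3 and a single RAD21 peak, in block replicate 1, of fold 3.54.

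The widest member regions lay in the 5S ribosomal RNA cluster on chromosome 8. The widest was 11603 bp at n-R5s144, and the next 4 were also at 5S genes, with widths from 7441 to 10974 bp and centres found 44 to 51 times in the genome. At n-R5s144 NIPBL folds were 9.27 and 9.11 in the control lists and 11.7 and 8.99 in the block lists, so that the groups overlapped. In all, 100 member regions were 2 kb or wider.

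Between other core gene groups the block folds were similar in level. Per list, the median of the mean block fold ran from 5.81 for the tRNA synthetases to 8.97 for RNA polymerase II and TFIID. These medians were counted per gene as for the histone genes. Med6, which encodes a Mediator head subunit, had block folds of 15.1 and 15.2 against control folds of 10.6 and 8.37. Gins3, a subunit of the replicative helicase, had 17.0 and 11.5 against 9.97 and 7.40, and RAD21 in 1 of 10 lists. Rpl21, a large ribosomal subunit protein gene, had 17.3 and 11.2 against 10.8 and 8.94. Gtf2b, the TFIIB gene, had 15.1 and 12.3 against 11.7 and 10.3. These regions were named for their block fold, and both block folds lay above both control folds in each, the order found at 56.4% of member regions. The opposite order was found at 26 member regions (0.300%), against 0.366% of the RAD21-overlapping promoter regions and 1.34% of all NIPBL regions. Each share is of regions with a peak in both block lists. Gm10582 was among the 26, with 9.43 and 6.58 in block lists against 12.6 and 12.6 in control lists.

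Folds of different lists are not on one scale, so no difference in NIPBL level is drawn from the fold alone. Over all peaks the median fold was 2.91 and 2.98 in the control lists and 3.77 and 2.83 in the block lists, so that block replicate 1 was above both control lists and block replicate 2 below both. Over the member regions with a peak it was 4.16 and 3.79 in the control lists and 6.40 and 4.70 in the block lists.

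NIPBL was found again at most member regions in the block cells. Block replicate 1 had a NIPBL peak in 88.4% and block replicate 2 in 91.2% of the member regions. Both had one in 8656 (85.8%), while of all 32156 NIPBL regions 73.4% had a peak in both block lists. None was found in either block list at 631 member regions (6.26%), against 12.2% of all NIPBL regions. The promoter regions overlapping RAD21 had peaks in both lists in 95.3% of cases and the distal regions outside RAD21 in 58.1%. Of member regions with a start inside 97.1% had a peak in both, and of those without a start inside 67.8%.

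The 5 member regions of highest control fold without a NIPBL peak in the block lists were narrow. They lay at Anapc5 (81 bp, 3726 bp from the start), Ebf1 (102 bp), Nfatc3 (176 bp), Ndufv3 (161 bp) and Hist1h2bq (116 bp), with mean control folds of 4.10 to 4.90. The centres of the regions at Nfatc3 and Ndufv3 occurred 935 and 1219 times in the genome.

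Covered length of NIPBL, the base pairs of a region under peaks, gave no region called between block and control. A limma model of log2(bp + 100) was fitted over 31117 NIPBL regions whose mean covered length was 50 bp or more, 9932 of them member regions. All these regions were selected for a NIPBL peak in both control lists, so the control arm was high by selection and a lower value in block cells is in part built in. The model called 0 regions, 0% of those tested, at an adjusted p under 0.05 (limma, Benjamini-Hochberg over all regions tested), and the smallest adjusted p was 0.0685. At an unadjusted p under 0.05, 38 member regions were higher and 634 lower in block cells, beside 85 higher and 3598 lower over all regions tested. The split of member regions was 190 higher and 190 lower after quantile normalization, 486 higher and 34 lower with peaks of −log10 q of at least 3, and 1884 higher and 532 lower without NIPBL control replicate 1, so these counts give no direction. The median log2 difference was 0.02 over member regions and -0.08 over all regions tested. With −log10 q of at least 3, 439 member regions were called, of 1162 called over all regions tested. The median log2 difference over member regions was 0.04 without NIPBL control replicate 1 and -0.03 without NIPBL control replicate 2. The control arm is then 1 library, whose spread is assumed to be that of the block libraries.

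RAD21 peaks at the member regions varied widely between libraries of one group. In the lists that the selection did not use, the share of member regions with a RAD21 peak was 12.7% and 56.3% in the block replicates, 15.5%, 27.2% and 8.58% in the Ig2b wild type replicates and 30.9%, 46.4% and 15.1% in the Ig2b deleted replicates. Replicate 2 of both dCas9 groups was high and replicate 1 low, and the peak names of these lists share one style in both replicates 1 and another in both replicates 2. In the promoter regions overlapping RAD21 the same lists gave 84.9% and 98.4%, then 78.6%, 87.0% and 68.6%, then 89.3%, 94.7% and 78.7%. Each library was higher there than at the member regions. The classes were split on RAD21 in the control lists, so this order is in part built in and given as description. In the Ig2b lists the order of the 6 member shares was the order of the length covered by all peaks of the list, from 11.6 Mb and 8.58% in wild type replicate 3 to 25.1 Mb and 46.4% in deleted replicate 2. The part of list size in these shares was not tested. The peak names of the Ig2b lists mark no control library, unlike those of the dCas9 lists. What this does to the Ig2b shares here and below was not tested.

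**Figure D4:**
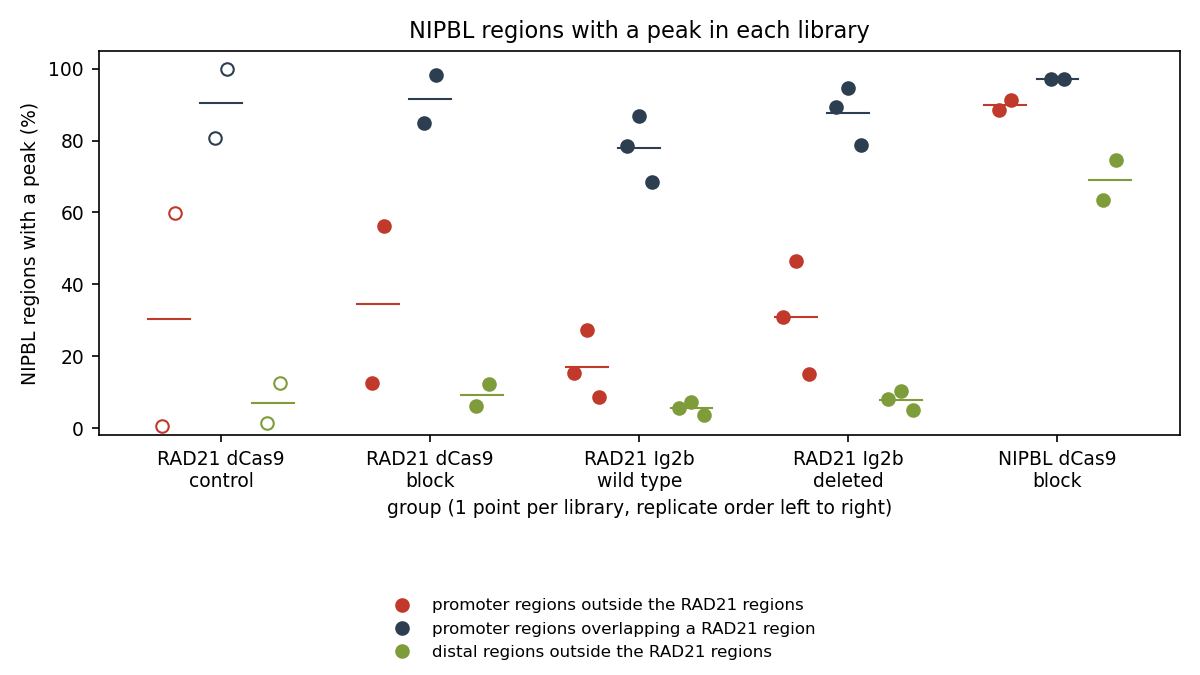
Percentage of NIPBL regions with a peak in each library (points, with the group mean as a line), for member regions (red), promoter regions overlapping RAD21 (dark) and distal regions outside RAD21 (green); open points are RAD21 control lists, which the selection used. Member regions ranged from 8.58% to 56.3% in the RAD21 lists not used for selection and stood at 88.4% and 91.2% in the NIPBL block lists.

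Where present, RAD21 peaks at member regions were low and covered part of the region. Their median fold was between 3.22 and 4.03 across the 10 lists, against 4.49 to 7.26 at the promoter regions overlapping RAD21. The latter were selected for RAD21 in both controls, so a higher fold there is in part built in. The median share of the region's width that they covered was between 16.5% and 48.9%. Within the 300 bp around the centre a RAD21 peak was found at 9.65%, 18.7% and 5.31% of member regions in the Ig2b wild type lists and at 21.2%, 34.2% and 9.74% in the deleted lists. The nearest RAD21 region of both controls was a median of 8.22 kb away (middle 50% from 2.82 to 20.4 kb), and 1163 member regions (11.5%) had one within 1 kb. Leaving those 1163 out, the Ig2b wild type shares were 15.3%, 26.8% and 8.43% and the deleted shares 30.5%, 45.7% and 14.8%.

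Over the 6 Ig2b lists, 4613 member regions (45.7%) had no RAD21 peak and 358 (3.55%) had one in every list. The median of the mean NIPBL block fold was 4.30 at regions with RAD21 in 0 of 6 lists and rose with each added list to 7.47 at those with 6 of 6. Median width was 423 bp at 0 of 6 and 742 bp at 6 of 6, so wider regions had more RAD21 peaks as well. When the 8656 member regions with peaks in both block lists were divided by block fold into 4 groups of 2164, the share with a RAD21 peak in Ig2b wild type replicate 1 was 6.42%, 13.8%, 17.8% and 32.2% from the lowest to the highest group. In Ig2b deleted replicate 2 it was 20.2%, 49.0%, 63.3% and 80.7%. The share rose from each group to the next in each of the 6 lists, and it did so in each also when the 592 regions whose block peak reached another NIPBL region were left out. Median widths of the 4 groups were 420, 641, 774 and 757 bp. Regions share their libraries, so no p is given.

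**Figure D5:**
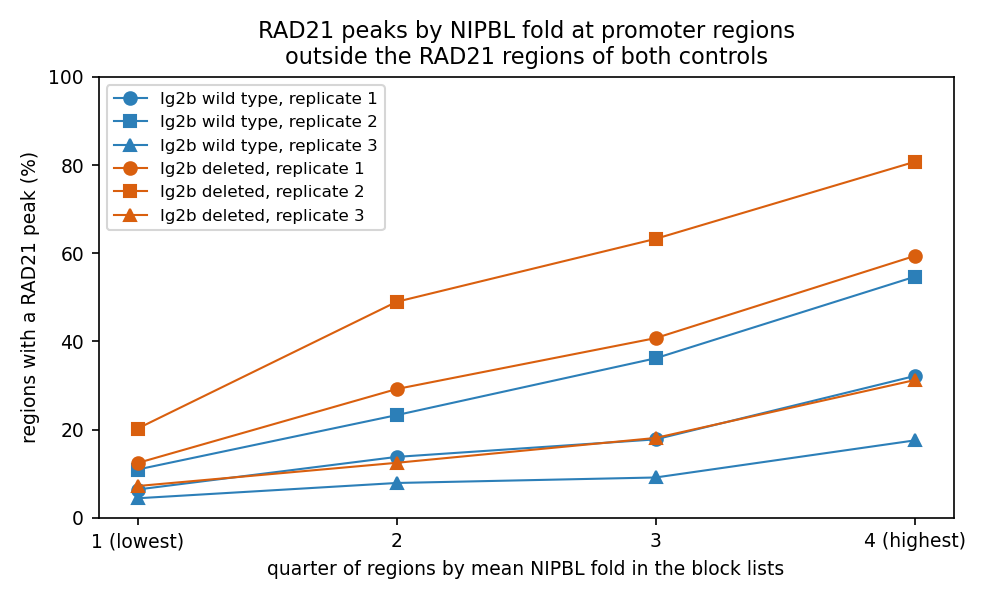
Percentage of member regions with a RAD21 peak in each Ig2b library (lines; blue wild type, orange deleted) by mean NIPBL fold in the block lists, in 4 groups of 2164 regions from lowest to highest. All 6 lines rise from the lowest to the highest group, from 4.44% to 17.6% in wild type replicate 3 and from 20.2% to 80.7% in deleted replicate 2.

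Single regions show both ends of this range. Of the member regions with RAD21 in all 6 Ig2b lists, the highest RAD21 folds were at Gm14513, Eif3g, 1700012B15Rik, Xkr8 and Patz1. At Eif3g, a translation initiation factor gene, RAD21 folds were 5.16, 5.86 and 4.64 in the Ig2b wild type lists, 6.92, 7.32 and 5.47 in the deleted lists, 8.92 in control replicate 2 and 3.93 and 7.60 in the block lists. The NIPBL folds at Eif3g were 10.1 and 6.12 in the control and 10.3 and 6.77 in the block lists, so these groups overlapped. At Gm14513, a pseudogene on X, RAD21 folds ran from 4.30 to 11.0 in 8 lists, while NIPBL folds were 2.84 and 2.97 in control and 3.36 in block replicate 1, with no NIPBL peak in block replicate 2.

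At the other end, the highest block folds with RAD21 in 0 of 10 lists were at Thoc4, Xkr7, Hist1h2al, Hist1h2af and Sod2. This rule was chosen after seeing the data, and it left out regions whose block peak reached another NIPBL region. Thoc4, which encodes an mRNA export adaptor, had NIPBL folds of 11.9 and 7.22 in control and 13.4 and 10.3 in block lists over a region of 1163 bp. Xkr7 had 9.99 and 7.63 in control and 12.1 and 10.3 in block lists. Sod2, the mitochondrial superoxide dismutase gene, had 7.50 and 7.15 in control and 11.7 and 7.63 in block lists, with the nearest RAD21 region 1449 bp away. A missing call does not show that RAD21 was absent there.

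Member regions with a start inside had RAD21 more often than those without one in each Ig2b library. The shares were 18.5%, 34.6% and 10.2% with a start inside against 10.5%, 15.5% and 5.94% without in the wild type lists, and 38.9%, 58.4% and 18.2% against 17.99%, 27.2% and 10.1% in the deleted lists. The mean difference was 15.3 percentage points (SD 10.3, n = 6 libraries), and an exact two-sided sign-flip permutation test over the 6 libraries gave p = 0.03125, the smallest it allows (adjusted p 0.046875 over the 3 share tests made). The difference was 11.4 points for regions with a centre found once and 6.32 points for the 300 bp around the centre, each with an exact p of 0.03125. Around the centre, shares in wild type replicate 3 were 5.39% with a start inside and 5.17% without, and in deleted replicate 2 40.9% and 23.5%. In the block lists they were 6.44% and 8.30% in replicate 1, the reverse order, and 53.0% and 30.7% in replicate 2. Regions with a start inside were wider (median 728 against 347 bp), and the part of width was not tested. The stricter −log10 q and covered share used in the next comparison were not run for this one. The comparison by start was added after seeing the data. It rests on the Ig2b lists, whose peak names mark no control library.

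The member regions had RAD21 more often than distal NIPBL regions outside RAD21, but under several settings the difference was small. Over the 6 Ig2b libraries the mean share was 23.9% at member regions and 6.71% at the distal regions, a difference of 17.2 points (SD 11.4, from 4.79 to 36.1, n = 6) with an exact sign-flip permutation p of 0.03125 (adjusted p 0.046875). Limited to regions with a centre found once, the difference was 1.99 points with an exact p of 0.594. With at least 50% of the region covered it was 1.797 points (exact p 0.25), and with peaks of −log10 q of at least 3 it was 0.746 points (exact p 0.125). The call was lost under each of these 3 settings.

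Ig2b deleted and wild type libraries were compared for RAD21 at the member regions. The mean share with a RAD21 peak was 17.1% ± 9.43 in wild type and 30.8% ± 15.7 in deleted libraries (SD, n = 3 each), and the groups overlapped. The difference was 13.7 points, with p = 0.3 by an exact two-sided permutation test (adjusted p 0.3), where 3 against 3 cannot go below 0.1. With the lists matched in length the difference was 5.05 points (exact p 0.3), and with −log10 q of at least 3 it was 2.18 points (exact p 0.1, the smallest possible). Leaving out 1 library gave from 5.90 points without deleted replicate 2 (exact p 0.6) to 21.6 points without deleted replicate 3 (exact p 0.2).

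Region by region, few member regions were called. In the limma fit of covered length, 3247 of the 10084 member regions (32.2%) and 10170 of all NIPBL regions passed the filter on mean covered length. Of all tested regions 45 (0.442%) were called at an adjusted p under 0.05, and 10 of the member regions were called, all higher in the deleted libraries. That is a share of the members close to the background. Of the 10, 9 were listed at 0 covered bp in each wild type library, and such regions could pass the filter only through the deleted libraries. The unadjusted p was under 0.05 with a higher value in the deleted libraries at 328 member regions and with a lower value at 2. Over all 10170 regions tested these counts were 886 higher and 24 lower. The median log2 difference was 0.69 over the member regions tested and 0.35 over all regions tested, and after quantile normalization 0.22 and -0.08, so all regions shifted by the scaling as well.

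The 5 called member regions of lowest adjusted p had no RAD21 peak in any wild type list. They could therefore enter the fit only through the deleted libraries and had no spread in wild type, so their values are given as description and their p-values as no support. Smc6, which encodes a core subunit of the SMC5/6 complex, had 503, 360 and 349 covered bp in the deleted libraries (limma adjusted p 0.0144). Rps27l, a ribosomal protein paralog gene, had 232, 290 and 252 covered bp (limma adjusted p 0.00755). Stxbp5, which encodes a syntaxin-binding protein, had 462, 769 and 472 covered bp (limma adjusted p 0.0236). Nudt4, a nudix hydrolase gene, had 142, 162 and 123 (limma adjusted p 0.0160), and Tmem90a had 189, 240 and 167 (limma adjusted p 0.0215). Each of these adjusted p-values passed 0.05 under some of 10 alternative settings and not under others, with the highest between 0.191 and 0.667. Leaving out wild type replicate 1 or wild type replicate 3, or quantile normalization, left 0 member regions called (limma; 275 higher and 71 lower at an unadjusted p under 0.05 after quantile normalization). Leaving out deleted replicate 1 or deleted replicate 2 gave 21 called member regions each, and leaving out deleted replicate 3 gave 307. Over all regions tested, 45, 42 and 564 were called in these fits.

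RAD21 covered length in block against control was tested at 13512 regions, of which 5454 were member regions, and the selection used the control lists. The limma fit called 0, 0% of those tested, with an unadjusted p under 0.05 at 19 member regions higher and 1 lower in block cells. Over all regions tested these counts were 44 higher and 17 lower. The replicate 1 lists had a RAD21 peak in 0.625% of member regions in control and 12.7% in block cells, and the replicate 2 lists in 59.9% and 56.3%, so the 2 pairs differed in direction. The median log2 difference over member regions was 0, and it was -1.07 without control replicate 1, 1.14 without control replicate 2, 0.95 without block replicate 1 and -0.95 without block replicate 2.

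At the limits of the selection, the member regions farthest from a start were at Gm2128 and Speer2, with 5000 bp to the nearer edge, and the closest NIPBL regions beyond the limit were at Psg-ps1 (5002 bp) and 2410016O06Rik (5003 bp). The member region at Prkcc adjoined a RAD21 region at 0 bp and that at Atxn7l3 lay 6 bp from one. The regions at Tbkbp1 and Klc3 overlapped a RAD21 region by 1 and 2 bp and were not members. Their mean control NIPBL folds were 4.40 at Prkcc, 4.26 at Atxn7l3, 2.81 at Tbkbp1 and 2.76 at Klc3.

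The RAD21 lists held 44729 to 82688 peaks covering 11.6 to 34.4 Mb, and the NIPBL lists 63052 to 123391 peaks covering 20.3 to 29.8 Mb. Read numbers per library are unknown, so the depth behind a missing peak cannot be given. Replicate lists were not copies of each other, as pairs within a group shared 1 to 9 peaks with identical ends.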

How the data were processed

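ChIP-seq peak lists of 14 libraries were read, 10 for RAD21 and 4 for NIPBL. Per the submitters' processing notes, Bowtie2 2.2.8, SAMtools 1.8 and MACS2 (version not given in the sources used here) and the mm9 build were used. Peaks were called per library. The peak names mark a control library for the dCas9 lists of both proteins, and mark removed duplicates but no control for the Ig2b lists. The deposited lists give for each peak a score, a fold enrichment (ratio), and −log10 p and −log10 q values; the authors' fold and −log10 q were used, and the score was not. Read depth is unknown.

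Peaks on chromosomes 1 to 19 and X were merged where they overlapped by 1 bp. Gene starts (37252, all biotypes) came from GENCODE vM1 on NCBIM37, as did the sequences. A region's fold in a list was that of its highest peak. Covered bp were fitted as log2(bp + 100) with limma 3.58.1 in R 4.3.3, without normalization or covariates, for regions whose mean covered length was 50 bp or more, with a two-sided test and Benjamini-Hochberg adjustment over all regions tested. Shares per library were compared by exact permutation. Python 3.11.15, numpy 2.4.6, pandas 2.3.3 and matplotlib 3.10.9 did the rest. Scripts were tested on simulated data. Groups came from the sample labels.

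Named genes were the 10 highest control folds and the 5 widest, up to 3 per gene list by block fold with listed genes that had no NIPBL region where 5 or fewer, up to 5 with RAD21 in all 6 Ig2b lists, up to 5 without a block peak, up to 5 per direction called by limma, the genes of the printed sequences, and those at the limits of the selection. Regions at Thoc4, Xkr7, Hist1h2al, Hist1h2af and Sod2 were chosen after seeing the data. The member regions and the 24 gene lists were chosen with earlier results of these data known. Alternatives were other distances, start sets, overlaps, thresholds, pseudocounts, filters, windows and normalization, the replicate number as a block, and leaving out each library.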

Additional observations from a re-analysis of the deposited data

How the results depend on the processing

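With −log10 q of at least 3 there were 5666 member regions, and with no peak of either RAD21 control list 3999; leaving out 1 control library gave 4046 to 22151. The excess of RAD21 at member over distal regions was 0.746 points at −log10 q of at least 3, 1.797 points with 50% of the region covered and 1.99 points with centres found once, and 13.5 to 19.7 points without 1 library, where 5 libraries cannot reach an exact p under 0.0625. The ratio to all starts in 500 bp windows was 0.947 for the ZNF143-like motif and 0.455 for CTCF, while the other 13 motif ratios moved by less than 1.5 times. Member regions called for Ig2b by limma were 4 with a pseudocount of 500 bp, 1 without a filter, 0 after quantile normalization, 21 at −log10 q of at least 3, and 0 to 307 without 1 library. Those called for NIPBL block were 439 at −log10 q of at least 3 and 0 to 521 without 1 library, and for RAD21 block 1 without a filter and 0 without any 1 library. In the dCas9 comparisons leaving out 1 library leaves an arm of 1, assumed to vary like the other. The causes were not tested. Of 50 settings for the 5 named regions, 33 lost the call and none changed direction. Alternatives on 300 bp around the centre, centres found once and distance from RAD21 regions were chosen after seeing the data. Unknown read depth limits what a missing peak shows.

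With the replicate number as a block, limma called 0 member regions in each of the 3 comparisons (for Ig2b, 450 higher and 7 lower at an unadjusted p under 0.05). For Ig2b the numbers were not taken as pairing the samples. Deviations of same-numbered Ig2b libraries correlated with r of 0.00846, 0.174 and 0.146 across regions. The regions are not independent, and 1 of these values was under 0.1. For the dCas9 lists r was 0.679 for RAD21 and 0.0802 for NIPBL. The RAD21 dCas9 values thus went with the replicate number, and the main RAD21 block fit took no account of it.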
